A study of Mus musculus with 8 samples.

Results

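The genes described here are 8 chemokine receptors that T cells use to move: Ccr2, Ccr4, Ccr8, Ccr9, Cxcr3, Cxcr4, Cxcr6 and Cx3cr1. They were taken as every non-control probe of the array whose gene name is one of these 8, which gave 13 probes of 56587, or 8 gene names of 37063. The study profiled CD4+ T cells isolated from C57BL/6 mice in 4 groups of 2 arrays. Per the labels, mice of 2 groups bore MCA205-OVA, a fibrosarcoma line expressing the model antigen ovalbumin (OVA), and those of the other 2 groups were tumour-free. All mice had received CD4+ T cells bearing a transgenic receptor for OVA and had then been immunised with dendritic cells loaded with OVA peptide, with either control antibody or antibody to the interleukin-6 receptor (anti-IL-6R) given alongside, so that the controls share the cell transfer and the immunisation. Cells were taken at day 4 after immunisation. Under control antibody, arrays 1 and 2 were of tumour-free and arrays 3 and 4 of tumour-bearing mice. Under anti-IL-6R, arrays 5 and 6 were of tumour-free and arrays 7 and 8 of tumour-bearing mice, and these numbers are used as replicate numbers below. The isolate is a mixture of the transferred and the host's own CD4+ cells, and neither its purity nor the number of mice behind a sample is given in the sources used here. The series' design speaks of independent experiments within each condition, and p-values measure the spread between their arrays. The labels do not say whether arrays of different groups share an experiment, so any such difference between experiments is left in that spread.

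Chemokine receptors are proteins of the seven-transmembrane family that couple to inhibitory G proteins and turn a gradient of chemokine into directed movement and integrin activation. Naive T cells keep to lymphoid tissue, and once primed they gain receptors that fit the tissue they are sent to. Cxcr3, Cxcr6 and Ccr2 are linked with effector cells that enter inflamed tissue, Ccr4 and Ccr8 with Th2 and regulatory T cells and with skin, and Ccr9 with the small intestine. Cxcr4 holds cells in the bone marrow and in lymphoid niches, and Cx3cr1 marks long-lived effector T cells as well as many monocytes. Interleukin-6 is a cytokine that shapes helper T cell differentiation through STAT3.

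Each array carried 62976 spots, of which 3671 were control spots, and 53.1% to 59.8% of the probes were well above background. The 8 arrays lay on 1 slide and were scanned on 1 date. The slide's columns held the 2 antibodies and its rows the 2 hosts, so that position on the slide cannot be told apart from the groups. Values below are log2 of the processed signal minus the array's 75th percentile, a level relative to the brighter probes of the same array, and a difference of 1 is a doubling of the signal. Tests are from limma over 32039 probes that passed a filter on dim signal (1 or more groups with both arrays well above background), with p-values adjusted by the Benjamini-Hochberg method over all of them and called at an adjusted p under 0.05. All 13 receptor probes passed that filter, and 12 of them were well above background on all 8 arrays, so no member was lost to low signal. No receptor spot was marked as an outlier. Each gene is represented by its brightest probe, and the level of one probe is not set against that of another.

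In tumour-bearing mice given the control antibody, 5 of the 8 receptor genes rose over tumour-free mice: Ccr2 by 1.46, Ccr4 by 1.08, Cxcr6 by 0.88, Ccr8 by 0.88 and Cxcr3 by 0.57 on the log2 scale. Of all probes tested, 3.36% were called higher and 1.89% lower in this comparison (5.25% in either direction). Under anti-IL-6R, 4 of those 5 genes fell in tumour-bearing mice, namely Ccr2, Ccr4, Cxcr3 and Cxcr6, while Ccr8 had a difference of -0.0084 and Cxcr4 rose by 0.80. The share of all probes called was 2.76% lower and 1.51% higher there (4.27% in either direction). The median over the 8 genes was 0.85 for the tumour effect, beside 0.01 over all probes, and -0.70 for the antibody effect in tumour-bearing mice, beside -0.04 over all probes. The 8 genes were chosen with earlier results of these data known, so the distance of their medians from those of all probes lends no independent support. The tumour effect and this antibody effect share replicates 3 and 4, so a gene that is high on those arrays is drawn up in one and down in the other. With no filter on dim probes, or with no trend in the variance, 3 of the 5 rises and none of the 5 antibody calls passed in limma (beside 1.19% and 2.25% of all probes for the tumour and 0.0265% and 0.175% for the antibody), the latter with adjusted p from 0.053 to 0.060 and from 0.068 to 0.085. Leaving out replicate 2 or 3 left 1 and 2 of the rises called, where 1.33% and 1.92% of all probes were called. Leaving out replicate 3 or 8 left 1 and none of the antibody calls, beside 0.637% and 0.0749% of all probes, and the direction of each of these differences was kept. In these bulk samples fewer cells that carry a receptor and less RNA per cell cannot be told apart.

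**Figure D1:**
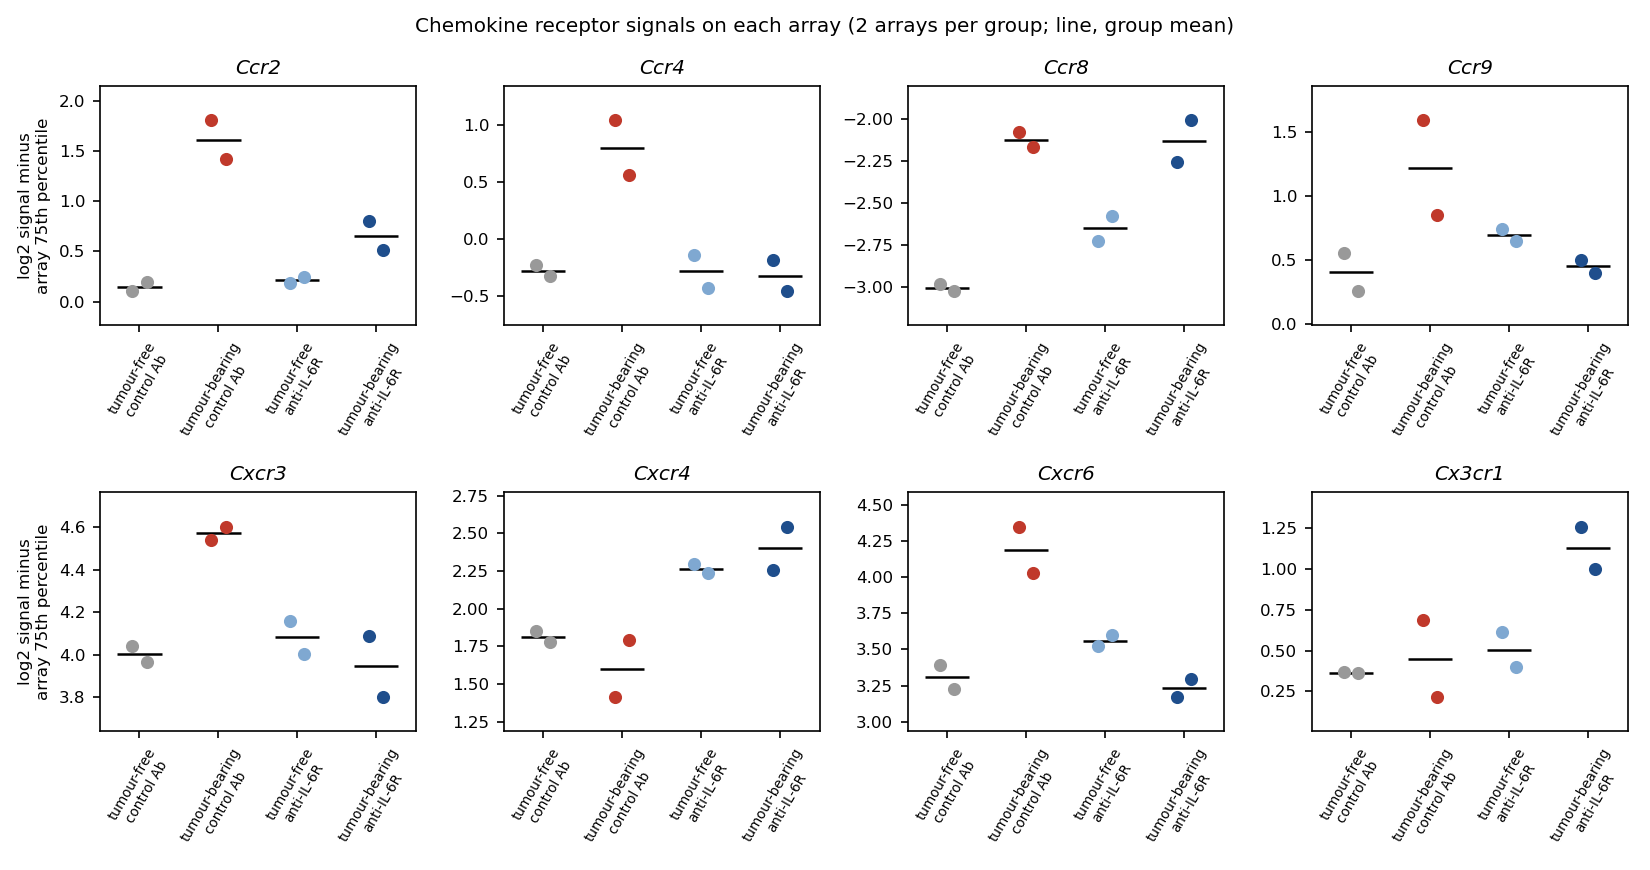
Signal of each of the 8 receptor genes (brightest probe) on each array, as log2 signal minus the array's 75th percentile, in the 4 groups of 2 arrays; points are arrays and lines are group means. In Ccr2, Ccr4, Ccr9, Cxcr3 and Cxcr6 both tumour-bearing arrays with control antibody lie above the other 6, while Ccr8 is high in both tumour-bearing groups, Cxcr4 in both anti-IL-6R groups and Cx3cr1 in tumour-bearing mice given anti-IL-6R. The shares of all probes with these orders were not counted.

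Without a tumour, anti-IL-6R changed none of the 8 genes at the threshold (limma), where 0.0312% of all probes were called (0.025% higher and 0.00624% lower). At an unadjusted p under 0.05 the count was 1 of 8 members, Cxcr4, beside 8.00% of all probes. With anti-IL-6R in both hosts, the tumour effect was called for none of the 8, beside 0.209% of all probes (0.181% higher and 0.0281% lower), and 4 of 8 members had an unadjusted p under 0.05, beside 7.43%. The host by antibody interaction, which asks whether anti-IL-6R acted differently with and without a tumour, was also called for none, beside 0.025% of all probes, or 8 probes in all (0.00624% above and 0.0187% below 0). Here 6 of 8 members had an unadjusted p under 0.05, beside 23.6% of all probes, and Cxcr6 had the smallest adjusted p at 0.056. An antibody effect called in tumour-bearing and not in tumour-free mice was therefore not shown to differ between the hosts at this threshold.

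**Figure D2:**
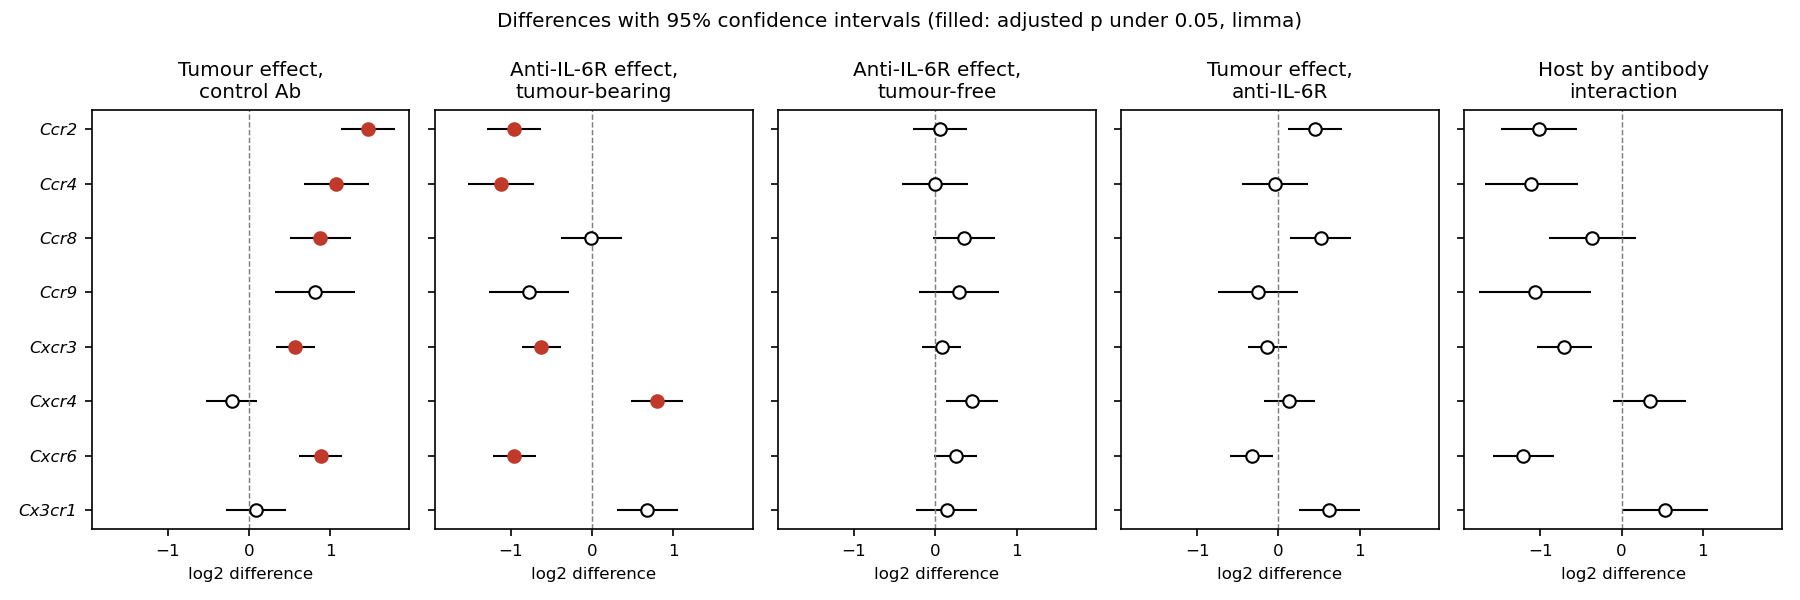
Differences on the log2 scale for the 8 receptor genes in the 4 comparisons and the interaction, with 95% confidence intervals from limma; filled points have an adjusted p under 0.05. The tumour effect under control antibody and the antibody effect in tumour-bearing mice hold 5 filled points each, and the other 3 panels hold none.

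The receptors of effector cells that enter inflamed tissue come first. Cxcr3 binds the interferon-induced chemokines Cxcl9, Cxcl10 and Cxcl11 and is a common marker of Th1 cells. Its probe, A_51_P319022, lies at chr X, 98926920 to 98926979, minus strand, in the mm9 build of the scanner files. Cxcr3 read 4.04 and 3.97 on the tumour-free arrays with control antibody and 4.54 and 4.60 on the tumour-bearing ones. With anti-IL-6R it read 4.16 and 4.00 without a tumour and 4.09 and 3.80 with one. The 2 tumour-bearing control arrays were thus the highest of the 8, and the other 3 groups overlapped with their neighbours in the order of means. The tumour effect of 0.57 ± 0.10 (SE, n = 2 per group) is a 1.48-fold rise (adjusted p = 0.024), and the antibody effect in tumour-bearing mice was -0.63 ± 0.10 (adjusted p = 0.029). Leaving out replicate 2, 3 or 4 ended the call of the rise (adjusted p = 0.14, 0.084 and 0.091). Leaving out 3, 4 or 8 ended that of the fall (0.079, 0.083 and 0.16), with its direction kept each time. For Cxcr3 the interaction was -0.70 (adjusted p = 0.087).

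Cxcr6, the receptor of the membrane-bound chemokine Cxcl16, marks T cells that settle in tissue. It read 3.39 and 3.23 on the tumour-free and 4.35 and 4.03 on the tumour-bearing arrays with control antibody. The anti-IL-6R arrays read 3.52 and 3.60 without a tumour and 3.17 and 3.30 with one. Again both tumour-bearing control arrays stood above all others, and the tumour-bearing arrays with antibody overlapped with the tumour-free controls. Cxcr6 rose by 0.88 ± 0.11 with the tumour, or 1.84-fold (adjusted p = 0.0069), and fell by 0.96 ± 0.11 with the antibody in tumour-bearing mice (adjusted p = 0.026). The rise missed the threshold when replicate 2 was left out (0.80, adjusted p = 0.053), as did the antibody effect when replicate 8 was (-1.02, adjusted p = 0.081). Its 2 probes, A_55_P1962209 and A_51_P412027, start 114 bases apart on chromosome 9 and gave differences of 0.88 and 0.87 for the tumour and of -0.96 each for the antibody. Of the 8 genes, Cxcr6 had the largest interaction, -1.21 ± 0.16 (adjusted p = 0.056), made of antibody effects of 0.25 without and -0.96 with a tumour. That interaction was called without replicate 1, 4, 6 or 7 and with arrays scaled to their median, where its adjusted p was lowest (0.014).

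Ccr2 is the receptor of the monocyte-attracting chemokines Ccl2, Ccl7 and Ccl12 and is carried by inflammatory monocytes and by effector T cells. Its probe, A_51_P245989, lies at chr 9, 124022948 to 124023007, plus strand (mm9). The values were 0.11 and 0.19 without and 1.81 and 1.42 with a tumour under the control antibody, then 0.18 and 0.24 without and 0.80 and 0.51 with a tumour under anti-IL-6R. The groups fall into 3 levels that do not overlap, with the tumour-bearing control arrays on top, the tumour-bearing antibody arrays between, and both tumour-free groups together at the bottom. The tumour effect of 1.46 ± 0.14, a 2.76-fold rise, was the largest of the 8 and the only 1 of their calls in this comparison to hold with every replicate left out in turn and under every other alternative tried (adjusted p = 0.0024, at most 0.02). The antibody effect in tumour-bearing mice was -0.96 ± 0.14 (adjusted p = 0.027) and missed the threshold when replicate 3 (-0.76, adjusted p = 0.067) or 8 (-0.82, 0.16) was left out. Under anti-IL-6R the tumour effect on Ccr2 was 0.45 ± 0.14 with an adjusted p of 0.59, and its 95% confidence interval ran from 0.11 to 0.78.

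The windows before the start of these 3 genes show what the rising receptors do and do not hold in common. Each is the 250 bases before the RefSeq start in build GRCm38.p6, read 5′ to 3′ on the gene's strand, with matches to 9 short motifs in capitals. The motifs, searched on both strands, were AP-1 (TGANTCA), STAT (TTCNNNGAA), Maf (TGCTGAC), T-box (TCACAC), the site of GATA factors (AGATAA), NFAT (TGGAAA), RUNX (TGTGGT), the GC box (GGGCGG) and the TATA box (TATAAA). In Cxcr3, on the minus strand at chrX:101734148-101734397, the capitals are a T-box and a RUNX match. In Cxcr6, on the plus strand at chr9:123806227-123806476, they are an NFAT and a RUNX match, and in Ccr2, on the plus strand at chr9:124101933-124102182, an NFAT and a GATA match.
Cxcr3: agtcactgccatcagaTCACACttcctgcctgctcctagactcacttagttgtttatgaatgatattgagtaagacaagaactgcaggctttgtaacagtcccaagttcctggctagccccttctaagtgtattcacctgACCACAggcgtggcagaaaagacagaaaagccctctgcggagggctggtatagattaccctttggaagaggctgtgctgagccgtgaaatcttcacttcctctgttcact
Cxcr6: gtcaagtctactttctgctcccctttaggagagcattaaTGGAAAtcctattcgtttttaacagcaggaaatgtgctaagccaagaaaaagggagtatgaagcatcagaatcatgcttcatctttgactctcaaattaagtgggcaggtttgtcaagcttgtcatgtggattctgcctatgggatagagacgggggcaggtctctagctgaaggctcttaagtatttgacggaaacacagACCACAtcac
Ccr2: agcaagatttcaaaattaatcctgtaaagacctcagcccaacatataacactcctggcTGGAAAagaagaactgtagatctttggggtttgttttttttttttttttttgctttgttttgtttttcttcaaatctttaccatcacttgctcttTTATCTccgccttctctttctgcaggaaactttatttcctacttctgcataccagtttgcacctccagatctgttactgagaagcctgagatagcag

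Ccr4, the receptor of Ccl17 and Ccl22, is carried by Th2 cells, by regulatory T cells and by T cells bound for skin. It read -0.23 and -0.33 on the tumour-free and 1.04 and 0.56 on the tumour-bearing arrays with control antibody, and -0.14 and -0.43, then -0.19 and -0.45, on those with anti-IL-6R. Only the tumour-bearing control arrays stood apart, and the other 3 groups overlapped. The tumour effect was 1.08 ± 0.18, or 2.11-fold (adjusted p = 0.016), and the antibody effect in tumour-bearing mice -1.12 ± 0.18, the largest fall of the 8 (adjusted p = 0.028). Under anti-IL-6R the tumour effect on Ccr4 was -0.04, with a 95% confidence interval from -0.44 to 0.37. Its second probe, A_51_P444476, starts 1294 bases from the brighter one, A_55_P1958215, and gave 1.11 (adjusted p = 0.043) and -1.27 (0.036) for the same 2 comparisons. Both probes thus passed in both comparisons. For the brighter probe, leaving out replicate 2 or 3 ended the call of the rise (adjusted p = 0.11 and 0.064), and leaving out 3 or 8 that of the fall (0.072 and 0.16).

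Ccr8 binds Ccl1 and, in the mouse, Ccl8, and marks activated regulatory T cells and Th2 cells. Its probe, A_55_P2103097, read -2.98 and -3.02 without and -2.08 and -2.16 with a tumour under control antibody, and -2.73 and -2.57 without and -2.25 and -2.01 with a tumour under anti-IL-6R. Both tumour-bearing groups overlapped and stood above both tumour-free groups, whatever the antibody. The tumour effect was 0.88 ± 0.17, or 1.84-fold (adjusted p = 0.026), under control antibody and 0.52 ± 0.17 (adjusted p = 0.59) under anti-IL-6R. The probe is dim, with signals of 64.4 to 128.9 before scaling, where the lowest signal well above background was 24.2 to 36.3 per array. The size of the rise depended on the processing. It was 0.96 with quantile normalization alone and 0.55 with another background correction before it. That correction also added a constant of 50 to every signal, which makes log2 differences of dim probes smaller. The antibody effect in tumour-bearing mice was -0.0084, with a 95% confidence interval from -0.39 to 0.37, and the interaction was -0.36 with an interval from -0.89 to 0.18. This interval includes 0 and also falls of the size seen for Cxcr3, so a difference between the hosts was neither detected nor excluded with 2 arrays per group. The rise of Ccr8 lost its call when any of replicates 1 to 4 was left out (adjusted p from 0.053 to 0.12) and, at 0.70, with arrays scaled to T cell genes (adjusted p = 0.068).

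Ccr4 and Ccr8 rose together with the tumour and parted under the antibody in tumour-bearing mice. Their windows hold different matches, and so do those of Ccr2 and Ccr4. The windows of Ccr2 and Ccr8 both hold a GATA match. Whether any match bears on these differences was not tested. In Ccr4, on the minus strand at chr9:114496545-114496794, the capitals are an AP-1 match, and in Ccr8, on the plus strand at chr9:120091883-120092132, a GATA and a Maf match.
Ccr4: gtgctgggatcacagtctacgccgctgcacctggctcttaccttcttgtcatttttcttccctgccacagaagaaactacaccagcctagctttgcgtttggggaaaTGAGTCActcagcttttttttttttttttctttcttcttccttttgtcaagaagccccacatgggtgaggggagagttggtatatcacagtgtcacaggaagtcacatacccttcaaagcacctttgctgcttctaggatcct
Ccr8: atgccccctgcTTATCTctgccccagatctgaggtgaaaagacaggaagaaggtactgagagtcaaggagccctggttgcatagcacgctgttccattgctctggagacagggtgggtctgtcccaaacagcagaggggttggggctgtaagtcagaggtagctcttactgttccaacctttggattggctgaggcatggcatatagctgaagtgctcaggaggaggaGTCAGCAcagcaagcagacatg

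Ccr9 is the receptor of Ccl25, the chemokine of thymus and small intestine, and is also carried by plasmacytoid dendritic cells. The brighter probe, A_52_P30312, read 0.55 and 0.26 without and 1.59 and 0.85 with a tumour under control antibody, and 0.74 and 0.65 without and 0.49 and 0.40 with a tumour under anti-IL-6R. Both tumour-bearing control arrays were again the highest, but they lay further apart than those of any other group for this gene. The tumour effect of 0.81 ± 0.21 did not pass (adjusted p = 0.067), and neither did the antibody effect of -0.77 ± 0.21 in tumour-bearing mice (adjusted p = 0.071). Without replicate 4 both passed, at 1.19 (adjusted p = 0.011) and -1.15 (0.029), and with arrays scaled to their median they passed too, at 0.90 (0.028) and -0.93 (0.024). The second Ccr9 probe, A_55_P2308239, starts 9399 bases away and was well above background on 6 of the 8 arrays. It gave 0.54 (adjusted p = 0.48) and -0.32 (0.66), and its values over the 8 arrays had a Pearson r of 0.51 with the brighter probe's.

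Cxcr4, the receptor of Cxcl12, keeps lymphocytes in bone marrow and lymphoid tissue and went the other way. It read 1.85 and 1.78 without and 1.41 and 1.79 with a tumour under control antibody, and 2.30 and 2.23 without and 2.26 and 2.54 with a tumour under anti-IL-6R. All 4 arrays with anti-IL-6R were above all 4 with control antibody, and the hosts overlapped under each antibody. The antibody effect in tumour-bearing mice was 0.80 ± 0.14, a 1.74-fold rise (adjusted p = 0.030). In tumour-free mice it was 0.45 ± 0.14, with an unadjusted p of 0.011 and an adjusted p of 0.54, and the interaction was 0.35 with an adjusted p of 0.31. The 95% confidence interval of that interaction, from -0.10 to 0.79, covers equal effects in both hosts. The tumour effect under control antibody was -0.21 (adjusted p = 0.40). Its second probe, A_55_P2745744, starts 1035 bases away and gave 1.06 (adjusted p = 0.035) for the antibody with a tumour and 0.50 (0.61) without. The antibody effect on the brighter probe, A_52_P585124, missed the threshold when replicate 3 or 8 was left out (adjusted p = 0.087 and 0.18) and with only the 2 groups in the fit (0.052).

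The window of Cxcr4 is shown because its base composition sets it apart from the others. On the minus strand at chr1:128592300-128592549, it holds 3 GC box matches and a TATA box, read on both strands in 8 overlapping bases.
Cxcr4: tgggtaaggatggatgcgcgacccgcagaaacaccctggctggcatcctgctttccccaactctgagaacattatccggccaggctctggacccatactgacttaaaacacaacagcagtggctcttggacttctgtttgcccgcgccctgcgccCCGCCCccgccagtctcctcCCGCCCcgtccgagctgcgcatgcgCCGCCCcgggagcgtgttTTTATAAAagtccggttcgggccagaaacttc
It has 19 CG dinucleotides and 61.2% G and C, while the other 7 windows have 1 to 4 CG dinucleotides, against a median of 6 over the 32851 windows of the RefSeq table. Of all windows, 32.7% hold a GC box match and 12.4% a TATA box match. NFAT letters, seen in Ccr2 and Cxcr6, are in 18.6% of all windows, RUNX letters, in Cxcr3, Cxcr6 and Cx3cr1, in 14%, and T-box letters, in Cxcr3, in 12.3%. GATA letters, in Ccr2 and Ccr8, are in 9.99%, AP-1 letters, in Ccr4, in 6.75%, Maf letters, in Ccr8, in 3.81%, and STAT letters, in none of the 8, in 7.02%. No motif was shared by all 4 genes that rose with the tumour and fell with the antibody, and a match is only a match of letters in this window.

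Cx3cr1, the receptor of the membrane-bound chemokine Cx3cl1, is high on patrolling monocytes and on cytotoxic effector cells. It read 0.37 and 0.36 without and 0.69 and 0.21 with a tumour under control antibody, and 0.62 and 0.40 without and 1.26 and 1.00 with a tumour under anti-IL-6R. The tumour-bearing antibody arrays were the 2 highest, and the other 3 groups overlapped with their neighbours. Its tumour effect under control antibody was 0.085 (adjusted p = 0.81), with a 95% confidence interval from -0.29 to 0.46. The antibody effect in tumour-bearing mice was 0.68 ± 0.16 and narrowly missed the threshold (adjusted p = 0.055). It passed at 0.65 after another background correction with quantile normalization (adjusted p = 0.048) and at 0.92 with arrays scaled to T cell genes (0.033). Its second probe, A_52_P99810, starts 1207 bases from the brighter one, A_55_P2007964, and gave 0.95 (adjusted p = 0.072). Under anti-IL-6R the tumour effect on Cx3cr1 was 0.62 ± 0.16, with an unadjusted p of 0.0047 and an adjusted p of 0.43.

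Among the 8 genes, 6 had both tumour-bearing control arrays above both tumour-free ones, a pattern that 27.8% of all probes show, and none had both below, beside 24.7%. With the antibody in tumour-bearing mice, 5 of 8 had both arrays lower, beside 34.1% of all probes, and 2 of 8 had both higher, beside 25.7%. In tumour-free mice 5 of 8 genes had both antibody arrays higher, beside 23% of all probes, and none had both lower, beside 16.9%. Under anti-IL-6R, 3 genes were higher with the tumour on both arrays and 2 were lower, beside 16% and 31.9% of all probes. Over the 5 genes with a pair of probes, the pair's values on the 8 arrays had a Pearson r of 0.99 for Ccr4 and Cxcr4, 0.997 for Cxcr6 and 0.92 for Cx3cr1, with Ccr9 the exception named above. These r are descriptions over 8 arrays whose group structure both probes share.

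**Figure D3:**
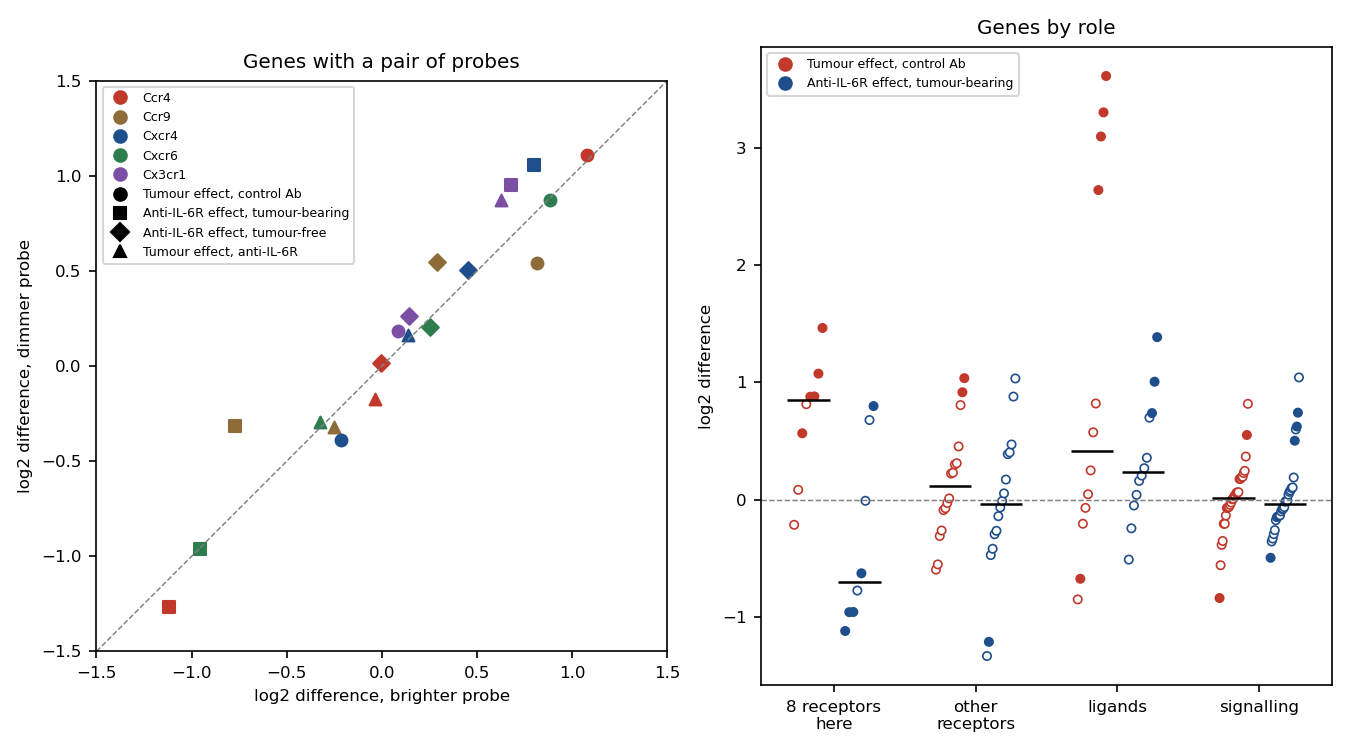
Left, difference on the log2 scale from the dimmer probe against that from the brighter probe for the 5 genes with a pair of probes, in 4 comparisons, with the line of equality dashed. Right, differences for the 8 receptors, 16 other chemokine receptors, 12 ligands and 28 signalling genes in the tumour effect (red) and the antibody effect in tumour-bearing mice (blue); filled points have an adjusted p under 0.05 and lines are medians. The receptors' medians are 0.85 and -0.70, and those of the other receptors 0.12 and -0.04. The 8 receptors and the lists were chosen with earlier results of these data known.

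Of 18 other chemokine and guidance receptors, 16 were measured, and Ccr1 and Xcr1 were not well above background on both arrays of any group. In the tumour effect under control antibody 2 of 16 were higher and none lower, with a median of 0.12. Cxcr5, which brings T cells to the B cell follicle, rose by 1.04 ± 0.16 (adjusted p = 0.012). Ccr6 (0.30) and Cmklr1 (-0.55) did not pass. With the antibody in tumour-bearing mice, 1 of 16 was lower, Cxcr5 at -1.21 ± 0.16 (adjusted p = 0.026). The median of this list turned its sign in both comparisons when arrays were scaled to T cell genes, to -0.06 and 0.20. Ccr7, the receptor of naive T cells for lymph nodes, chosen here after its values were seen, had -0.09 and 0.05.

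The ligands of the 8 receptors were measured for 12 of 14, Ccl22 and Cx3cl1 being dim. In the tumour effect under control antibody 4 were higher and 1 lower. Ccl8, a ligand of Ccr8 in the mouse, rose by 3.30 ± 0.28 (adjusted p = 0.0014) and Ccl1, the other ligand of Ccr8, by 2.64 ± 0.36 (0.0083). Ccl7, a ligand of Ccr2, was not well above background on any tumour-free array and was at least 2.12-fold higher with the tumour (adjusted p = 0.0031), its bound being set by the lowest signal well above background on each array. Ccl12, another ligand of Ccr2, named after its values were seen, was well above background on 6 arrays and rose by 3.61 (adjusted p = 0.022). Cxcl9, a ligand of Cxcr3, fell by 0.67 ± 0.10 (adjusted p = 0.011). These are chemokines that T cells, monocytes and other cells release, so ligands of Ccr2 and Ccr8 rose in samples in which those receptors rose, while 1 ligand of Cxcr3 moved against it.

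With anti-IL-6R in tumour-bearing mice 3 of the 12 ligands were higher and none lower, and none of the 3 was a ligand of Ccr2 or Ccr8. Cxcl9 rose by 1.01 ± 0.10 (adjusted p = 0.018), and, named after their values were seen, Cxcl10, also a ligand of Cxcr3, by 0.74 ± 0.16 (0.047) and Cxcl12, the ligand of Cxcr4, by 1.39 ± 0.22 (0.027). Ccl8 had 0.36 and Ccl1 -0.51 in the same comparison. Under anti-IL-6R, Ccl8 was still 2.84 ± 0.28 higher with the tumour (adjusted p = 0.013) and Ccl7 at least 2.48-fold higher (0.013), and Ccl2, named after its values were seen, was 2.19 higher (0.050). In tumour-free mice none of the 12 ligands passed.

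Of 28 genes that carry, brake or shut off the signal below chemokine receptors, 1 was higher and 1 lower in the tumour effect, with a median of 0.02. Gng2, a G protein gamma subunit, rose by 0.55 ± 0.09 (adjusted p = 0.013), and Rgs2, a brake on G protein signalling, fell by 0.84 ± 0.12 (0.011). Rgs1 (-0.56) and Rgs16 (0.82), further genes of the RGS family, had an adjusted p of 0.054 each. With the antibody in tumour-bearing mice 3 of 28 were higher and 1 lower. Rgs2 rose by 0.74 and Gng2 fell by 0.49, and Rgs1 and, named after its value was seen, Pik3r5, a regulatory subunit of the PI3-kinase that chemokine receptors use, rose by 0.62 and 0.50.

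Lists of helper T cell genes are given because the receptors are used as markers of the same subsets; they were chosen with results of these data known and lend no independent support. Of 10 Th1 genes, 4 were higher with the tumour under control antibody, including Il12rb1 (0.80) and Nkg7 (0.62), and 2 were lower with the antibody. The 10 ran from -0.69 to 0.80 with the tumour and from -0.81 to 0.58 with the antibody. Of 10 regulatory T cell genes, 7 were higher and 3 lower in the same 2 comparisons. They ran from 0.39 to 1.19 and from -0.50 to 0.50, with Tnfrsf4 at 1.19 and -0.50. Of 6 measured Th2 genes, 3 were higher and the same number lower. They ran from 0.25 to 2.50 and from -1.61 to 0.23, with Il4 at 2.50 and -1.61. T cell identity genes were well above background on all arrays, 12 of 12, and Cd4 lay between 5.29 and 5.59 in the group means. Of these 12, 1 rose with the tumour (Cd5, 0.39) and none passed with the antibody. With the tumour under control antibody the 12 had a median of 0.19, from -0.03 to 0.39. With the antibody in tumour-bearing mice all 12 were lower, from -0.39 to -0.09, with a median of -0.24 beside -0.04 over all probes.

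Genes of other blood cells were also present on every array. All 13 monocyte and macrophage markers, all 11 natural killer cell markers, all 9 plasmacytoid dendritic cell markers and all 11 B cell markers were well above background on all 8 arrays. The log2 of the summed level of the monocyte list was 7.65 to 7.76 in tumour-free mice and 7.52 to 7.84 in tumour-bearing mice with control antibody, and 7.75 to 8.00 and 8.04 to 8.20 with anti-IL-6R. By this summed level it was highest in the group in which Cx3cr1 was highest. By the mean log2 level over the list, the highest array was replicate 6, of tumour-free mice with anti-IL-6R. With anti-IL-6R that mean was 2.48 and 2.84 on replicates 5 and 6 and 2.72 and 2.65 on replicates 7 and 8. With the antibody in tumour-bearing mice the monocyte list had a median difference of 0.55, with Cd14 called (1.14), where Cx3cr1 had 0.68 and Ccr2 -0.96. In the tumour effect that list's median was -0.30, where Ccr2 had 1.46.

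The natural killer cell list summed to 4.04 to 4.11 and 3.56 to 3.65 with control antibody (tumour-free, then tumour-bearing) and to 4.25 to 4.30 and 3.97 to 4.15 with anti-IL-6R. Of its 11 genes, 3 fell with the tumour under control antibody (Klra4 by 1.43, Klra8 by 1.17 and Gzma by 0.85) and 1 rose (Klrb1c by 0.87), where Cxcr3 and Cxcr6 rose. With the antibody in tumour-bearing mice 3 of the 11 were called higher and none lower, where Cxcr3 and Cxcr6 fell. Klrb1c was lower there without passing, with group means of 0.90 under control antibody and 0.30 under anti-IL-6R. The plasmacytoid dendritic cell list, whose cells carry Ccr9, summed to 8.16 to 8.17, 8.01 to 8.12, 8.17 to 8.22 and 8.21 to 8.25 in the same order. That sum rests largely on 1 bright gene, Siglech, whose group means were 7.77, 7.52, 7.71 and 7.78. The list's median difference, in which each gene counts alike, was 0.45 with the tumour and -0.07 with the antibody in tumour-bearing mice. With the tumour Klk1 was called (1.80), while Siglech had -0.25 and did not pass. The list's mean log2 level was 3.63 on replicate 3 and 2.94 on replicate 4, the arrays on which Ccr9 read 1.59 and 0.85. This order was not particular to the list. The monocyte, dendritic cell and erythroid means were 2.44, 0.41 and 3.21 on replicate 3 and 1.82, -0.31 and 2.36 on replicate 4, while the T cell identity mean was 6.31 and 6.35. The B cell list, whose cells carry Cxcr4 and Cxcr5, had medians of -0.90 and 0.72, with 5 of 11 genes called lower and 1 higher, where Cxcr4 had -0.21 and 0.80 and Cxcr5 had 1.04 and -1.21. Of 7 measured dendritic cell genes 1 rose with the tumour, Clec10a (1.52), and neither Cd8a nor Cd8b1 passed. The part of these cells in the receptor values was not tested.

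The mean log2 levels of the neutrophil, erythroid and plasma cell lists were highest on the 2 tumour-bearing control arrays. Of the receptors, Ccr2, Ccr4, Ccr9, Cxcr3 and Cxcr6 were highest there too, an order whose share of all probes was not counted. By the summed level used for the lists above, only the plasma cell list was highest on those 2 arrays. The summed neutrophil level was highest on replicate 6 (8.05, beside 7.81 and 7.78 on replicates 3 and 4). The summed erythroid level was 9.66 on replicate 3 and 9.10 on replicate 4, beside 9.39 on replicate 6 and 9.37 on replicate 7. With the tumour under control antibody 6 of 13 neutrophil, 8 of 12 erythroid and 5 of 7 plasma cell genes were higher, with medians of 1.55, 1.83 and 1.60 (0.86 for the plasma cell list with its 2 genes that were dim in tumour-free mice at their bound). With the antibody in tumour-bearing mice 6, 6 and 1 of them were lower, with medians of -1.55, -1.04 and -0.69. The lists differed in the other comparisons: the plasma cell median was 0.66 with the tumour under anti-IL-6R (0.24 with dim genes at their bound), and the erythroid median was 1.04 with the antibody in tumour-free mice, with no gene of either list called there. Their part in the receptor values was not tested. When each array was instead scaled to its mean over the 12 T cell identity genes, an alternative chosen after seeing the data, 4 receptors rose with the tumour, beside 7.55% of all probes called (Ccr2 1.28, Ccr4 0.90, Cxcr6 0.70, Cxcr3 0.39). Those 4 fell with the antibody in tumour-bearing mice (-0.72, -0.88, -0.72 and -0.39), and Cxcr4 and Cx3cr1 rose (1.04 and 0.92), beside 12.5% of all probes called. That scaling moved the median of all probes to -0.17 for the tumour and 0.20 for the antibody, and the share of calls that were higher from 64.0% to 23.2% and from 35.4% to 90.6%. The directions of the receptors called under both scalings were the same under both.

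**Figure D4:**
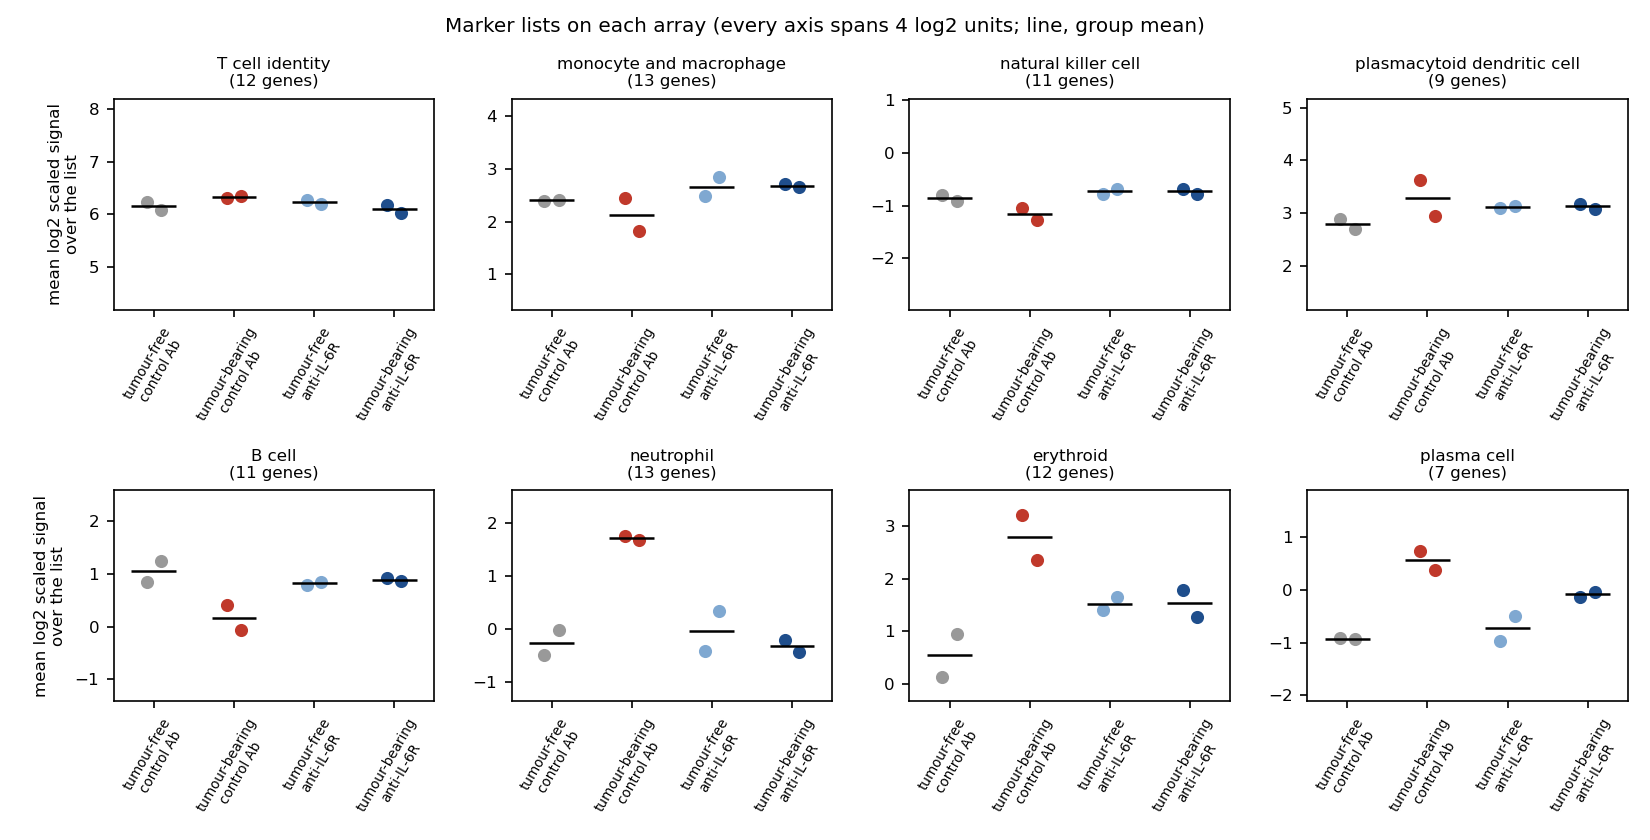
Mean log2 scaled signal of 8 marker lists on each array in the 4 groups (points, arrays; lines, group means; every vertical axis spans 4 log2 units). The T cell identity mean stays between 6.02 and 6.35, while the neutrophil, erythroid and plasma cell means are highest on the 2 tumour-bearing control arrays.

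On the chromosome, 6 of the 8 genes lie on chromosome 9, with Cxcr3 on X and Cxcr4 on 1. In the RefSeq order of protein-coding genes Cx3cr1 and Ccr8 are next to each other, and Ccr9 and Cxcr6 are separated by Fyco1, whose span covers Cxcr6. Neighbours did not share a pattern throughout: Ccr8 rose with the tumour under control antibody and Cx3cr1 had 0.085. Ccr9 and Cxcr6 had 0.81 and 0.88 in that comparison, and -0.77 and -0.96 with the antibody in tumour-bearing mice. Those of Ccr9 did not pass.

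Among 12917 genes well above background on all arrays, the genes whose values over the 8 arrays were most like those of a receptor differed from receptor to receptor. For Ccr4 they were Alad (Pearson r = 0.996), Lgals1 (0.99) and Prr13 (0.99), for Cxcr3 Pkp3, Psen2 and Rsph3b (each 0.99), and for Ccr2 St6galnac6, Rbpj and Fhdc1 (each 0.99). For Cxcr6 they were Ankrd52, Oip5 and Fbxl8 (each 0.98), for Ccr8 Pon3 (0.99), Serpinf1 (0.98) and Cdkn2a (0.97), and for Ccr9 Fkbpl, Agtrap and Erc1 (each 0.99). Cxcr4 had Zcchc2 (0.97), Fkbp10 and Ston1 (each 0.96), and Cx3cr1 had Sh3tc1 (0.97), Rin2 (0.94) and Ptpro (0.93). With so many genes and 8 arrays in 4 groups, r of this size is a description of which genes follow the same order of groups.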

How the data were processed

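Total RNA of CD4+ T cells was labelled with cyanine-3 from 0.1 µg, per the labels' protocols, and hybridised to 1-colour Agilent arrays. The deposited scanner files hold intensity per spot, which the submitters' processing notes credit to Feature Extraction 10.10.1.1 (Agilent); the processed signal in them is already background-subtracted. The authors' deposited table holds log2 values, which matched log2 of the scanner signal minus the array's 75th percentile (r = 1), and was used as an alternative. Here control spots and outlier spots were left out, signals were taken as log2 minus each array's 75th percentile (before scaling, 500.3 to 526.6), and 4 group means were fitted with limma 3.58.1 (eBayes with trend, 4 residual degrees of freedom) in R 4.3.3. The fit was tested on simulated data.

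The members and gene lists were chosen with earlier results of these data known. All members and probes are named; of each list, up to 4 genes with the smallest unadjusted p in the tumour effect under control antibody; and, per member, the 3 genes with the highest r. Of the other chemokine receptors, 1 gene is counted but not reported here. Genes were named through RefSeq accessions (32986 probes), symbols (10220) or synonyms (520), otherwise as in the file (12861). All 8 members matched a RefSeq promoter window (GRCm38.p6). Probe coordinates are those of the scanner files (mm9); whether probes lie in coding sequence or UTR was not analysed here. The number of arrays limits the precision. Figures were drawn with matplotlib 3.10.9.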

Additional observations from a re-analysis of the deposited data

Results flagged for a closer look

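None of the 8 receptors had an antibody effect that differed between the hosts at the threshold. Among the marker lists described beside them, 4 neutrophil granule genes did, by limma's interaction term: their antibody effect was far lower in tumour-bearing than in tumour-free mice. The difference was -4.42 for Camp (adjusted p = 0.021), -5.23 for Ltf (0.032), -2.56 for Mpo (0.044) and -5.34 for Ngp (0.023). Camp was well above background on all 8 arrays. Ngp was so on 4 arrays, Mpo on 6 and Ltf on 7, so their fitted sizes partly rest on dim signals and are no bounds. On tumour-bearing arrays Ngp was at least 21.3-fold lower with anti-IL-6R. Groups of 2 arrays were too small for a test of single outlying arrays.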

How the results depend on the processing

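No paired analysis was possible because the labels give the groups no shared replicate numbers. Over the 8 receptors, 5 comparisons and 19 alternatives (18 for the interaction), 685 of 752 values kept their direction and their side of the threshold, 36 lost and 14 gained a call, and 17 reversed. The tumour effect under control antibody had 5 receptors called, 3 with no filter on dim probes (where 1.19% of all probes were called, not 5.25%), 3 with no trend in the variance (2.25%) and 1 to 5 with 1 replicate left out. The antibody effect in tumour-bearing mice had 5, none with no filter (0.0265% of all probes, not 4.27%), none with no trend (0.175%) and 0 to 5 with 1 replicate left out; scaled to T cell genes it had 6, of which 2 were higher and not 1, beside 12.5% of all probes (3636 higher and 379 lower). The interaction had 3 with median scaling (1.37% of all probes, not 0.025%) and 0 to 2 with 1 replicate left out (0.0125% to 1.14%), where an arm of 1 array is assumed to vary like the others. Median scaling moved the median of all probes to -0.20 for that antibody effect and -0.26 for the interaction, and the share of calls that were higher from 80% to 62.2% for the antibody in tumour-free mice and from 25% to 40.8% for the interaction. For the interaction that share was 0% after quantile normalization and 10% after normexp with it.

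The 17 reversals are all of values that were not called. Under control antibody the tumour effect on Cx3cr1 became -0.15 without replicate 3 (up to 0.32 with others left out) and -0.095 with scaling to T cell genes. The antibody effect in tumour-bearing mice became 0.034, 0.12 and 0.23 for Ccr8 without replicate 3, without replicate 7 and with scaling to T cell genes (down to -0.13 with 1 left out). In tumour-free mice it became 0.022, 0.0014, 0.042 and 0.14 for Ccr4 (median scaling, quantile normalization, without replicate 1 and without 6; down to -0.15), -0.025 and -0.00019 for Cxcr3 (normexp, without replicate 5; up to 0.15) and -0.013 for Ccr2 (scaling to T cell genes). The tumour effect under anti-IL-6R became 0.11, 0.095 and 0.096 for Ccr4 (without replicate 5, without 8, scaling to T cell genes; down to -0.18), 0.0086 for Cxcr3 (down to -0.28) and -0.0094 for Cxcr4 (up to 0.28), both without replicate 8. The cause was not tested.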
